A study of Mus musculus with 9 samples.

Results

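The genes described here encode the enzymes that write and erase methyl groups on histone lysines, in RN2 leukaemia cells depleted of Brg1. Of 48 listed names, 42 genes were measured, out of 19937 genes with a probe set of a single symbol on the arrays. They comprise 24 methyltransferase and 18 demethylase genes and are read by 49 probe sets, out of 34760 on the array. The members were chosen by gene symbol, with no threshold on any value, but the family was put forward with earlier results of Brg1 knockdown on these same arrays known. Differences between a Brg1 hairpin and the control are therefore given as a description, with the number of genes past the threshold over the whole array beside them and nothing read from that comparison. Of the other names, 4 are older symbols of measured genes (Setd8, Suv420h1, Whsc1 and Whsc1l1), and Suv39h1 and Ash1l were not analysed here. Y-linked relatives were left out.

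Methylation of histone lysines marks chromatin by position. Methyl groups on H3K4 mark promoters and enhancers and those on H3K36 mark transcribed gene bodies, whereas those on H3K9 and H4K20 mark silenced or condensed chromatin. Methyltransferases carry mostly SET domains and draw their methyl group from S-adenosylmethionine. Demethylases are either flavin-dependent amine oxidases of the LSD type or JmjC dioxygenases that need iron and 2-oxoglutarate. In leukaemia of the MLL-AF9 type the N-terminal part of the H3K4 methyltransferase encoded by Kmt2a is itself part of the driving fusion, and Kdm1a (LSD1) and Jmjd1c are among the erasers on which such cells have been reported to depend.

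RN2 cells are mouse acute myeloid leukaemia cells that carry the MLL-AF9 fusion and NrasG12D. All 9 arrays came from cells with the TRMPV vector, which expresses a hairpin RNA under doxycycline control, after 96 h with 1 ug/ml doxycycline. Hairpins against Brg1, the SWI/SNF remodelling ATPase encoded by Smarca4, were Brg1sh_3232, Brg1sh_3364 and Brg1sh_4935, with 2 arrays each. The control was a hairpin against Renilla luciferase (Rluc), a sequence that mouse cells lack, with 3 arrays. The labels of the control arrays carry the extra vector term TtTMPV, so this difference in name cannot be told apart from the comparison. Nothing in the labels says that arrays of a group came from separate cultures, so the errors measure the spread between arrays, which may be technical. The cells are a single leukaemia line, and RNA was taken from the bulk culture.

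Levels are RMA log2 intensities, for which a difference of 1 is a doubling, and each gene was read by its probe set with the highest mean. Smarca4 itself differed from the Rluc control by -1.01 (SE 0.05) on the log2 scale over the mean of the hairpins, and by -0.999 with Brg1sh_3232, -0.99 with Brg1sh_3364 and -1.05 with Brg1sh_4935. Array medians lay between 7.39 and 7.49. The groups contained 6 knockdown arrays and 3 Rluc arrays, and precision is limited by how few they are. Of 9 macrophage markers 7 were higher in the knockdown cells, with a summed linear signal of 20900 to 28300 on the knockdown arrays, against 12700 to 13400 on the Rluc arrays. Of 19 mitosis genes 15 were lower, with a summed signal of 71500 to 84800 on the knockdown arrays, against 90800 to 91300 on the Rluc arrays. The 9 lymphoid markers summed to 641 to 701 on the knockdown arrays, against 653 to 666 on the Rluc arrays, and none was past the threshold. The macrophage and mitosis lists moved in the same comparison as the members below, and their part in the members' differences was not tested. Of the other lists, neutrophil markers gave 2 higher and 6 lower of 12, mast cell and basophil markers 1 and 3 of 7, erythroid and megakaryocyte markers 1 higher of 7, and stromal and epithelial markers 1 higher of 9. Over all genes 13.3% were higher and 15.0% lower in this comparison. Of 10 genes that define a myeloid leukaemia cell 5 were higher and 2 lower, with a median log2 difference of 0.13 and a lowest value of -0.61. Among them, Ptprc (CD45) lay between 12.45 and 12.59 on the knockdown arrays, against 12.15 to 12.30 on the Rluc arrays. Spi1 (PU.1) lay between 12.96 and 13.15 on the knockdown arrays, against 12.68 to 12.90 on the Rluc arrays. Both lay above Rluc on every knockdown array, so neither is among the 2 lower genes of this list, which are not named here. In bulk RNA, fewer cells of a type and less RNA per cell cannot be told apart.

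Promoter sequence was available for 30 of the 42 genes from RefSeq, in the mouse assembly GRCm38.p6, as 250 bases before to 50 bases after each annotated start. The windows below belong to the largest and next largest difference in each direction among genes with an entry. They are examples and do not stand for the promoters of the members. Kdm7a, at chr6:39206724-39207023 on the minus strand, and Phf8, at chrX:151520422-151520721 on the plus strand, were higher in the knockdown cells. Suv39h2, at chr2:3474937-3475236 on the minus strand, and Smyd2, at chr1:189922242-189922541 on the minus strand, were lower. Capitals mark matches to any of 5 motifs, searched on both strands and matches of different motifs may overlap: the E-box CACGTG, the CCAAT box CCAAT, the E2F site as TTTCCCGC or TTTGGCGC, the NRF1 site GCGCATGC and the ETS site CCGGAAGT.
Kdm7a: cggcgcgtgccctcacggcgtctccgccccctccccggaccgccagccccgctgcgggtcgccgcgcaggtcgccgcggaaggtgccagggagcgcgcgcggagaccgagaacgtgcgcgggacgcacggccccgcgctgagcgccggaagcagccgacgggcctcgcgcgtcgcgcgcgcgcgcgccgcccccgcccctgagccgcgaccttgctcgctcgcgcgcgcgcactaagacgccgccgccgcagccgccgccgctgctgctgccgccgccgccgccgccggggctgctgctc
Phf8: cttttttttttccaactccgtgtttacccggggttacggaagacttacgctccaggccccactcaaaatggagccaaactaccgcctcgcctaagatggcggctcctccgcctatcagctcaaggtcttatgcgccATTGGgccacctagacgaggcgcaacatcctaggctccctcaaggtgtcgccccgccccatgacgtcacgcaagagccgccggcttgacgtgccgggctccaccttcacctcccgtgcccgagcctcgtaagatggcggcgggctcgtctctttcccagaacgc
Suv39h2: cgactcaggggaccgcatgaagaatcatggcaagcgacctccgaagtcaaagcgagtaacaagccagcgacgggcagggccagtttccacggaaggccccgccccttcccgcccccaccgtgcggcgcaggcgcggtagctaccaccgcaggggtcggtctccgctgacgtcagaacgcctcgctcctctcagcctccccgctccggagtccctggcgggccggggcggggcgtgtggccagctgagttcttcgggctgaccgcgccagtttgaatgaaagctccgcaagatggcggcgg
Smyd2: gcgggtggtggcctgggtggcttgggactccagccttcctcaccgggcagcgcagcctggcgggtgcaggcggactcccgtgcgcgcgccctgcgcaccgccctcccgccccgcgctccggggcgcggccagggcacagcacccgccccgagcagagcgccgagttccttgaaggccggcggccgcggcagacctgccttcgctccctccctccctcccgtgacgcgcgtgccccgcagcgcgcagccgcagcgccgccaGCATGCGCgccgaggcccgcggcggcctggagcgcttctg
The Phf8 window held a CCAAT box and the Smyd2 window an NRF1 site, both read on the opposite strand, and the other pair of windows held none of the motifs. The GC content of the window was 82.7% for Kdm7a, 61.0% for Phf8, 68.3% for Suv39h2 and 79.0% for Smyd2. Over all windows of the members the median was 65.5%, against 52.7% over all promoters in the table. A CCAAT box stood in a window of 36.7% of the members, against 41.1% of all genes with an entry, and an E-box in 10.0% of the members, against 8.09% of all genes. The NRF1 site occurred in 3.33% of the members, against 3.05% of all genes. No member's window held the E2F letters, against 1.8% of all genes, or the ETS letters, against 4.31% of all genes. A match is a description of these letters only.

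Over the mean of the hairpins against Rluc, 19 of the 42 genes were higher and 4 were lower in the knockdown cells at an adjusted p below 0.05 in the limma fit over all genes, and 19 were not past it. Over all 19937 genes 13.3% were higher and 15.0% were lower. The members' median log2 difference was 0.13, against -0.0004 over all genes. The median size of the difference regardless of sign was 0.17 among the members and 0.07 over all genes. Differences were small: Kdm7a, at 1.61-fold, and Suv39h2, at 0.575 of the Rluc level, were the members that differed by 1.5-fold or more, and none reached 2-fold. On 14 genes all 6 knockdown arrays lay above all 3 Rluc arrays, which 10.7% of all genes did. On 5 genes all knockdown arrays lay below, which 12.1% of all genes did. All 42 members lay above the median level of the genes on the array, and after leaving out genes below that level 24 members were higher and 6 lower, against 25.6% higher and 30.1% lower over the genes kept.

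**Figure D1:**
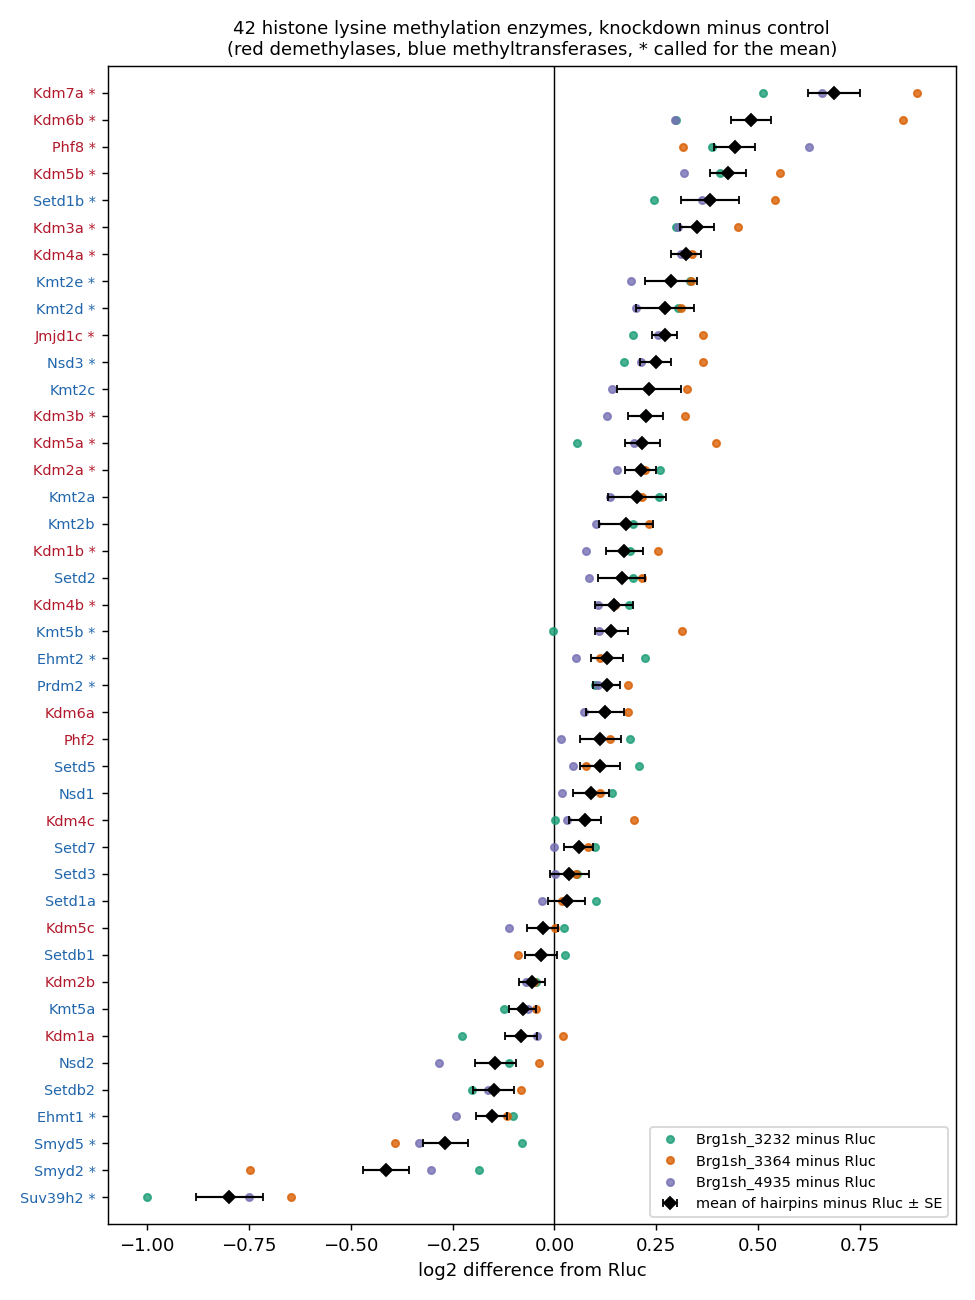
Log2 difference of each member gene, mean of the 3 Brg1 hairpins minus Rluc, shown as a black diamond with its SE, and each hairpin minus Rluc as a coloured point. Names of demethylases are red and those of methyltransferases blue, and an asterisk marks genes past the adjusted threshold for the mean. Kdm7a (0.69) and Suv39h2 (-0.80) stand at the ends, and 19 genes are marked higher and 4 lower.

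Counts of the erasers and the writers are given here apart, beside 13.3% higher and 15.0% lower over all genes. Of the 18 demethylase genes 12 were higher and none lower in the knockdown cells, with a median log2 difference of 0.21. Of the 24 methyltransferase genes 7 were higher and 4 lower, with a median of 0.10. The difference between these classes was not tested. With each array centred on its own median, the members counted 15 higher and 7 lower, beside 10.9% and 19% of all genes. Of the calls over all genes 36.5% were then in the higher direction, against 47.1% without centring. Under that centring the demethylases still counted 11 higher and none lower, and the methyltransferases 4 higher and 7 lower. With the mean of each hairpin taken as a replicate, 8 members were higher and 1 lower, beside 6.71% and 7.42% of all genes. When the hairpin entered as a random block, 13 members were higher and 1 lower, beside 8.49% and 9.61% of all genes.

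**Figure D2:**
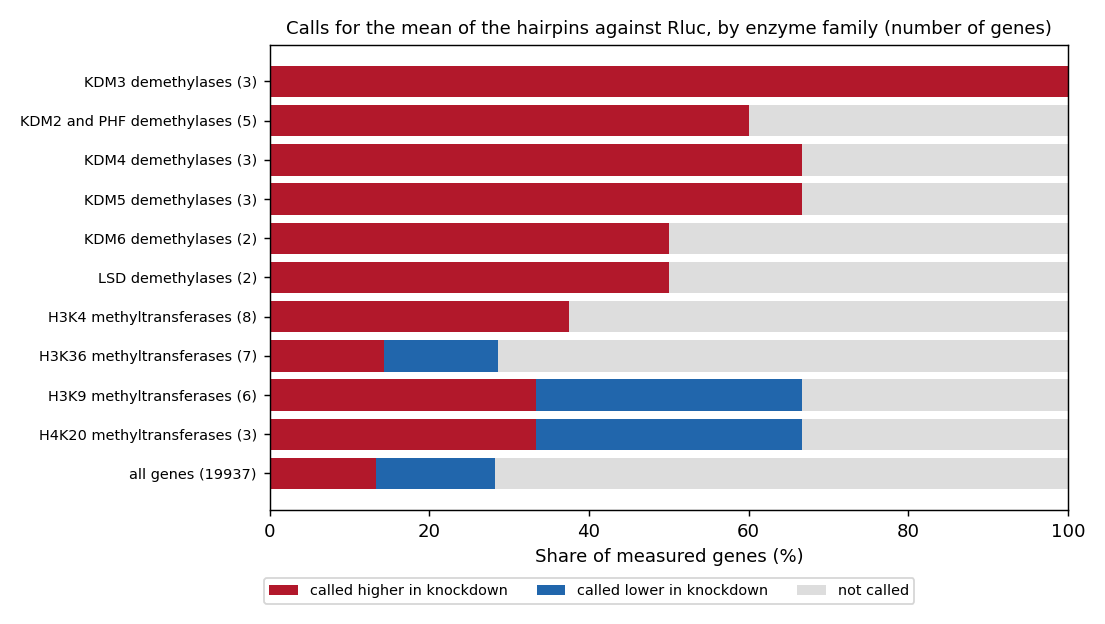
Share of genes past the threshold in each enzyme family and over all genes, mean of the 3 Brg1 hairpins against Rluc, by direction. All 3 KDM3 genes are higher, and the H3K9 methyltransferases hold 2 higher and 2 lower of 6.

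Among the demethylases, the KDM2 and PHF group had 3 of 5 genes higher. Kdm7a, a JmjC enzyme with a PHD finger that removes methyl groups from H3K9 and H3K27, stood at 12.41 and 12.27 with Brg1sh_3232, 12.68 and 12.74 with Brg1sh_3364, and 12.53 and 12.44 with Brg1sh_4935, against 11.99, 11.75 and 11.73 with Rluc. All knockdown arrays were above all Rluc arrays, and the means were 12.51 ± 0.18 (SD, n = 6 arrays) with the Brg1 hairpins and 11.82 ± 0.14 (SD, n = 3 arrays) with Rluc. The first SD pools the 3 hairpins and so includes differences between them. The log2 difference was 0.69 (SE 0.06), and the second probe set of the gene gave 0.82 (SE 0.04). Phf8, an X-linked relative that acts on H3K9 and H4K20, stood at 11.00 and 11.00 with Brg1sh_3232, 10.95 and 10.91 with Brg1sh_3364, and 11.22 and 11.26 with Brg1sh_4935, against 10.51, 10.74 and 10.60 with Rluc. Its groups did not overlap either, and the Brg1sh_4935 arrays were the highest. The log2 difference was 0.44 (SE 0.05). Kdm2a, a CxxC-domain demethylase of H3K36 that binds CpG islands, rose by 0.21 (SE 0.04), whereas its paralogue Kdm2b differed by -0.06 (SE 0.03) and Phf2 by 0.11 (SE 0.05), neither past the threshold.

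The KDM3 enzymes remove mono- and dimethyl groups from H3K9, and all 3 genes were higher. Kdm3a, which is known as a hypoxia-induced eraser, stood at 10.62 and 10.58 with Brg1sh_3232, 10.78 and 10.73 with Brg1sh_3364, and 10.64 and 10.57 with Brg1sh_4935, against 10.39, 10.27 and 10.26 with Rluc. The groups were apart, and the log2 difference was 0.35 (SE 0.04). Jmjd1c, the largest member of the group, stood at 11.51 and 11.51 with Brg1sh_3232, 11.68 and 11.68 with Brg1sh_3364, and 11.57 and 11.57 with Brg1sh_4935, against 11.30, 11.32 and 11.33 with Rluc. Its Rluc arrays lay close together and every knockdown array was above them. The log2 difference of Jmjd1c was 0.27 (SE 0.03), with 0.29 on its second probe set, and that of Kdm3b was 0.22 (SE 0.04).

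The KDM4 enzymes act on trimethylated H3K9 and H3K36, and the KDM5 enzymes on H3K4. Kdm4a stood at 11.32 and 11.38 with Brg1sh_3232, 11.38 and 11.34 with Brg1sh_3364, and 11.33 and 11.34 with Brg1sh_4935, against 10.97, 11.06 and 11.05 with Rluc. Its 6 knockdown arrays spanned 11.32 to 11.38, all above Rluc, with a log2 difference of 0.32 (SE 0.04). Kdm4b rose by 0.15 (SE 0.05), a call kept in 6 of 22 alternative settings (other normalizations, filters and error terms, and arrays or hairpins left out), and Kdm4c differed by 0.08 (SE 0.04), which was not past the threshold. Kdm5b, known as PLU-1, stood at 10.51 and 10.47 with Brg1sh_3232, 10.66 and 10.61 with Brg1sh_3364, and 10.41 and 10.39 with Brg1sh_4935, against 10.12, 10.15 and 9.98 with Rluc. The knockdown arrays were all higher, and Kdm5b differed by 0.43 (SE 0.04). Kdm5a, first described as a partner of the retinoblastoma protein, stood at 10.57 and 10.53 with Brg1sh_3232, 10.89 and 10.90 with Brg1sh_3364, and 10.71 and 10.67 with Brg1sh_4935, against 10.41, 10.58 and 10.50 with Rluc. Here the Brg1sh_3364 arrays were the highest and the Brg1sh_3232 arrays overlapped Rluc. The log2 difference of Kdm5a was 0.22 (SE 0.04), and the call ended without Brg1sh_3364. The X-linked Kdm5c differed by -0.03 (SE 0.04) and was not past the threshold.

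The KDM6 enzymes remove H3K27 methylation and oppose Polycomb. Kdm6b (JMJD3), which is induced in activated macrophages, stood at 10.57 and 10.64 with Brg1sh_3232, 11.11 and 11.21 with Brg1sh_3364, and 10.62 and 10.58 with Brg1sh_4935, against 10.24, 10.41 and 10.26 with Rluc. All knockdown arrays were above Rluc, and those of Brg1sh_3364 stood well above the other hairpins. Its log2 difference was 0.48 (SE 0.05). Kdm6a (UTX), the X-linked relative, stood at 10.95 and 10.86 with Brg1sh_3232, 10.97 and 10.96 with Brg1sh_3364, and 10.91 and 10.80 with Brg1sh_4935, against 10.85, 10.80 and 10.70 with Rluc. Its groups overlapped, and the difference of 0.12 (SE 0.05) was not past the threshold. Of the LSD enzymes, Kdm1b rose by 0.17 (SE 0.05), a call kept in 14 of 22 settings. Kdm1a stood at 10.89 and 10.84 with Brg1sh_3232, 11.17 and 11.06 with Brg1sh_3364, and 11.05 and 11.06 with Brg1sh_4935, against 11.06, 11.14 and 11.09 with Rluc, with a log2 difference of -0.08 (SE 0.04) that was not past the threshold over the mean of the hairpins. Without Brg1sh_3364, Kdm1a was lower by a log2 difference of -0.13, past the threshold, and the demethylases then counted 9 higher and 1 lower.

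**Figure D3:**
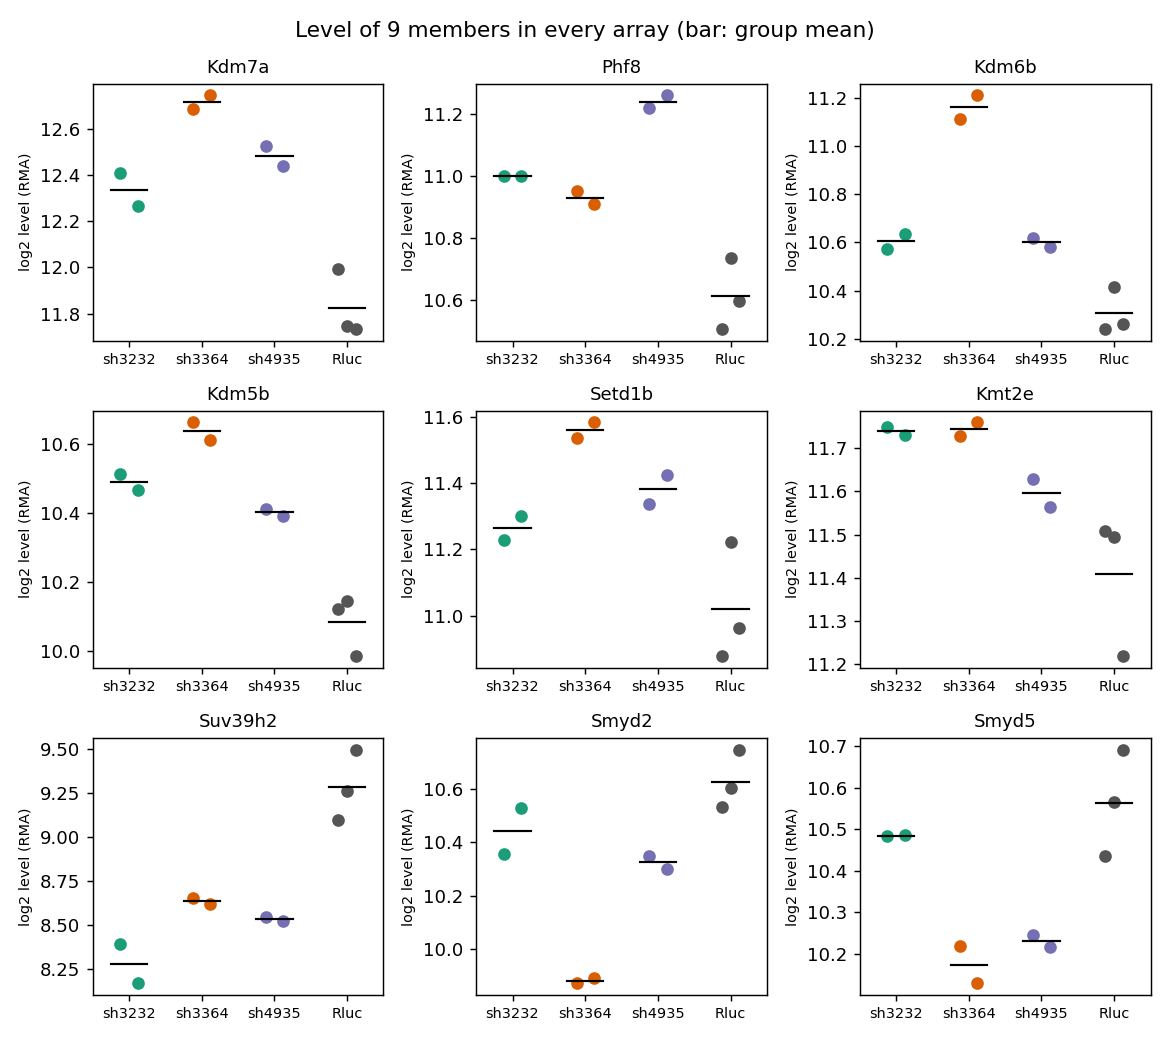
RMA log2 level of 9 member genes on every array, 2 points for each Brg1 hairpin and 3 for Rluc, with the group means. The Kdm7a and Suv39h2 groups do not overlap Rluc, and Kdm6b and Smyd2 differ between Brg1sh_3364 and the other hairpins.

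The H3K4 methyltransferases had 3 of 8 genes higher and none lower, with a median log2 difference of 0.22. Setd1b, the catalytic subunit of a COMPASS complex at promoters, stood at 11.23 and 11.30 with Brg1sh_3232, 11.54 and 11.58 with Brg1sh_3364, and 11.34 and 11.43 with Brg1sh_4935, against 10.88, 11.22 and 10.96 with Rluc. All knockdown arrays were above Rluc, though Rluc replicate 2 came close to the lowest of them. The log2 difference was 0.38 (SE 0.07), with 0.40 on its second probe set. Kmt2e, a SET-domain protein of the MLL family with no clear catalytic activity of its own, stood at 11.75 and 11.73 with Brg1sh_3232, 11.73 and 11.76 with Brg1sh_3364, and 11.63 and 11.56 with Brg1sh_4935, against 11.51, 11.50 and 11.22 with Rluc, and differed by 0.29 (SE 0.06). Kmt2d, an enhancer H3K4 monomethylase, stood at 10.71 and 10.62 with Brg1sh_3232, 10.61 and 10.74 with Brg1sh_3364, and 10.57 and 10.56 with Brg1sh_4935, against 10.30, 10.56 and 10.23 with Rluc, with overlap and a log2 difference of 0.27 (SE 0.07). The second Kmt2d probe set gave 0.18 and was not past the threshold. The Kmt2d call was kept in 11 of 22 settings, and ended without Brg1sh_3232, without Brg1sh_3364, and without Rluc replicate 1 or 3.

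Kmt2a, which encodes the unfused MLL protein, stood at 10.49 and 10.44 with Brg1sh_3232, 10.37 and 10.48 with Brg1sh_3364, and 10.36 and 10.33 with Brg1sh_4935, against 10.26, 10.36 and 10.00 with Rluc. Rluc replicate 3 was the lowest array and Rluc replicate 2 lay within the knockdown arrays, and the log2 difference of 0.20 (SE 0.07) was not past the threshold. Whether the probe set reads the fusion transcript is not given in the sources used here. Kmt2c differed by 0.23 (SE 0.08) and Kmt2b by 0.18 (SE 0.07), neither past the threshold, and Setd1a by 0.03 (SE 0.05). Without Rluc replicate 2, 6 of 8 genes of this group were past the threshold, and 2 were without Rluc replicate 1 or 3, without Brg1sh_3364 replicate 2, or without either Brg1sh_4935 array.

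Among the 7 H3K36 methyltransferases 1 was higher and 1 lower. Nsd3, a methyltransferase of the NSD family, stood at 11.32 and 11.32 with Brg1sh_3232, 11.49 and 11.55 with Brg1sh_3364, and 11.39 and 11.34 with Brg1sh_4935, against 11.12, 11.22 and 11.12 with Rluc. The groups did not overlap, with a log2 difference of 0.25 (SE 0.04). Smyd2, which also methylates non-histone proteins such as p53, stood at 10.36 and 10.53 with Brg1sh_3232, 9.87 and 9.89 with Brg1sh_3364, and 10.35 and 10.30 with Brg1sh_4935, against 10.53, 10.60 and 10.75 with Rluc. All knockdown arrays were below the lowest Rluc array, one of them by a narrow margin, the Brg1sh_3364 arrays were the lowest, and the log2 difference was -0.41 (SE 0.06). Setd2, the enzyme that trimethylates H3K36 on transcribed genes, stood at 11.58 and 11.54 with Brg1sh_3232, 11.60 and 11.56 with Brg1sh_3364, and 11.44 and 11.46 with Brg1sh_4935, against 11.48, 11.40 and 11.21 with Rluc, with overlapping groups and a difference of 0.16 (SE 0.06) that was not past the threshold. Nsd2 differed by -0.14 (SE 0.05), also not past it. Setd5 differed by 0.11 (SE 0.05), Nsd1 by 0.09 (SE 0.04) and Setd3, now known mainly as an actin histidine methyltransferase, by 0.04 (SE 0.05), none past the threshold.

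The H3K9 methyltransferases were split, with 2 higher and 2 lower of 6. Suv39h2, which lays down the trimethyl mark of pericentric heterochromatin, stood at 8.39 and 8.17 with Brg1sh_3232, 8.65 and 8.62 with Brg1sh_3364, and 8.55 and 8.52 with Brg1sh_4935, against 9.10, 9.26 and 9.49 with Rluc. Every knockdown array was below every Rluc array, and the means were 8.48 ± 0.18 (SD, n = 6 arrays of the pooled hairpins) with the Brg1 hairpins and 9.28 ± 0.20 (SD, n = 3 arrays) with Rluc. Its log2 difference of -0.80 (SE 0.08) was the largest fall among the members, and the hairpins gave -1.001 with Brg1sh_3232, -0.65 with Brg1sh_3364 and -0.75 with Brg1sh_4935. Ehmt1 (GLP) stood at 9.63 and 9.62 with Brg1sh_3232, 9.61 and 9.62 with Brg1sh_3364, and 9.50 and 9.48 with Brg1sh_4935, against 9.72, 9.80 and 9.66 with Rluc, with all knockdown arrays below Rluc and a log2 difference of -0.15 (SE 0.04). Taken singly, only Brg1sh_4935 gave a call for Ehmt1, and the call over the mean, kept in 17 of 22 settings, ended without that hairpin. Ehmt2 (G9a), the heterodimer partner of Ehmt1, stood at 10.86 and 10.84 with Brg1sh_3232, 10.71 and 10.78 with Brg1sh_3364, and 10.70 and 10.66 with Brg1sh_4935, against 10.70, 10.61 and 10.58 with Rluc. The Ehmt2 groups overlapped, and the log2 difference of 0.13 (SE 0.04) was past the threshold over the mean of the hairpins, a call kept in 8 of 22 alternative settings and lost, among others, with the arrays centred on their medians and without Brg1sh_3232 or Brg1sh_3364. Prdm2 (RIZ) rose by 0.13 (SE 0.03), a call kept in 14 of 22 settings, with 0.07 on a second probe set that was not past the threshold. Setdb1, the enzyme that silences retroelements with TRIM28, stood at 10.62 and 10.63 with Brg1sh_3232, 10.46 and 10.55 with Brg1sh_3364, and 10.56 and 10.56 with Brg1sh_4935, against 10.66, 10.56 and 10.57 with Rluc, and its difference of -0.03 (SE 0.04) was not past the threshold. Setdb2 differed by -0.15 (SE 0.05) and was not past it.

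Among the enzymes assigned to H4K20, Kmt5b rose by 0.14 (SE 0.04) and Smyd5 fell by 0.27 (SE 0.05). Kmt5b, which adds the second and further methyl groups, stood at 10.17 and 10.11 with Brg1sh_3232, 10.48 and 10.43 with Brg1sh_3364, and 10.28 and 10.22 with Brg1sh_4935, against 10.09, 10.13 and 10.21 with Rluc. The Brg1sh_3364 arrays of Kmt5b were the highest and the Brg1sh_3232 arrays lay among those of Rluc, and the call, kept in 12 of 22 settings, ended without Brg1sh_3364. Smyd5 stood at 10.48 and 10.49 with Brg1sh_3232, 10.22 and 10.13 with Brg1sh_3364, and 10.24 and 10.22 with Brg1sh_4935, against 10.44, 10.56 and 10.69 with Rluc, with the Brg1sh_3232 arrays inside the Rluc range. Kmt5a (SET8), the mitotic monomethylase, lay between 12.18 and 12.28 on the knockdown arrays, against 12.28 to 12.34 on the Rluc arrays, and its difference of -0.08 (SE 0.03) was not past the threshold. Setd7, a lysine monomethylase first assigned to H3K4, differed by 0.06 (SE 0.04) and was not past it.

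Each hairpin was also set against the same 3 Rluc arrays, so these comparisons share their controls. With Brg1sh_3232, 14 members were higher and 2 lower, beside 9.59% higher and 11.3% lower of all genes. With Brg1sh_3364, 19 were higher and 3 lower, beside 13.6% and 12.2% of all genes. With Brg1sh_4935, 10 were higher and 5 lower, beside 9.79% and 12.3% of all genes. The demethylases gave 9 higher and 1 lower with Brg1sh_3232, 12 higher and none lower with Brg1sh_3364, and 8 higher and none lower with Brg1sh_4935. The methyltransferases gave 5 higher and 1 lower with Brg1sh_3232, 7 and 3 with Brg1sh_3364, and 2 and 5 with Brg1sh_4935. Single arrays moved these totals: the 16 called members of Brg1sh_3232 became 9 without its replicate 2, the 22 of Brg1sh_3364 became 14 without its replicate 1, and the 15 of Brg1sh_4935 became 9 without its replicate 1 and 7 without its replicate 2. The lone array left in such a fit is assumed to vary like the other groups.

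For single genes, the differences of each hairpin from the shared Rluc arrays stand side by side here. Kdm7a gave 0.51 with Brg1sh_3232, 0.89 with Brg1sh_3364 and 0.66 with Brg1sh_4935, and Kdm4a gave 0.32 with Brg1sh_3232, 0.34 with Brg1sh_3364 and 0.31 with Brg1sh_4935. Kdm6b gave 0.30 with Brg1sh_3232, 0.86 with Brg1sh_3364 and 0.29 with Brg1sh_4935, and Smyd2 gave -0.19 with Brg1sh_3232, -0.75 with Brg1sh_3364 and -0.30 with Brg1sh_4935. The 3 values of Kdm4a lay close together, whereas those of Kdm6b and Smyd2 were largest in size with Brg1sh_3364. Phf8 gave 0.39 with Brg1sh_3232, 0.32 with Brg1sh_3364 and 0.63 with Brg1sh_4935, the last being the largest. Kdm1a gave -0.23 with Brg1sh_3232, 0.02 with Brg1sh_3364 and -0.04 with Brg1sh_4935, and was called lower with Brg1sh_3232 and not called with the other two hairpins.

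The estimates of differences between the Brg1 hairpins do not involve the Rluc arrays, and these differences were tested. The Rluc arrays do enter the estimate of the spread, which all groups share. By limma's moderated F test, with p-values adjusted over all 19937 genes, 6 members differed among the hairpins, beside 10.5% of all genes. These were Kdm6b (adjusted p = 0.00194), Smyd2 (0.00572), Kdm5a (0.0185), Kmt5b (0.0193), Kdm1a (0.0436) and Phf8 (0.0464). This share of the members, 6 of 42, was close to that over all genes. Without Rluc replicate 3 the calls of Kdm1a and Phf8 ended (F test adjusted p = 0.0521 and 0.0573). That of Kdm1a also ended without Rluc replicate 2 (F test adjusted p = 0.0582). Kdm7a was gained without Rluc replicate 1 (F test adjusted p = 0.0185). Set against the mean of the other hairpins, Brg1sh_3364 gave 6 members higher and 1 lower, beside 6.35% higher and 4.20% lower of all genes.

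Kdm6b was higher with Brg1sh_3364 than with the mean of the other hairpins by a log2 difference of 0.56 (SE 0.06, limma adjusted p = 0.000724). Both of its Brg1sh_3364 arrays were above all arrays of the other hairpins. Smyd2 was lower, by a log2 difference of -0.50 (SE 0.07, limma adjusted p = 0.00237), with both arrays below all others. Kdm5a was higher by 0.27 (SE 0.05) and Kmt5b by 0.26 (SE 0.05, limma adjusted p = 0.0116 for Kdm5a and 0.0107 for Kmt5b). For both genes the Brg1sh_3364 arrays were the highest of the knockdown arrays. Kdm7a (0.30, SE 0.08), Kdm4c (0.18, SE 0.05) and Jmjd1c (0.14, SE 0.04) were also higher, at adjusted p-values of 0.0415, 0.0475 and 0.0444 in the limma fit. The F test called none of these genes. In a limma fit over every probe set of 1 symbol, the second Kdm7a probe set gave 0.35 (adjusted p = 0.00468). That of Jmjd1c gave 0.14 (adjusted p = 0.112) and was not past the threshold. The 7 calls became 2 without Brg1sh_3364 replicate 1 and 3 without its replicate 2. They became 4 without Brg1sh_3232 replicate 2 and 4 without either Brg1sh_4935 array. Kdm6b and Smyd2 stayed past the threshold in each of these.

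The 6 calls of the F test became 1 without either Brg1sh_3364 array, where Kdm6b remained at adjusted p-values of 0.02 and 0.0342. They became 3 without Brg1sh_3232 replicate 1 or Brg1sh_4935 replicate 1, and 2 without Brg1sh_3232 replicate 2 or Brg1sh_4935 replicate 2. Mitosis genes also differed between the hairpins: 8 of 19 were lower than Rluc with Brg1sh_3364, against 15 with each of the others. Over all genes 12.2% were lower with Brg1sh_3364, 11.3% with Brg1sh_3232 and 12.3% with Brg1sh_4935. Of the 19, 6 were higher with Brg1sh_3364 than with the mean of the others, beside 6.35% higher and 4.20% lower of all genes. Of 9 macrophage markers, none was higher and 5 were lower with Brg1sh_3364 than with the mean of the others, with a median log2 difference of -0.40. Of 12 neutrophil markers, 5 were higher and 2 lower in that comparison. The part of these lists in the members' hairpin differences was not tested. Smarca4 differed by 0.03 (SE 0.06) between Brg1sh_3364 and the mean of the other hairpins, and its F test gave an adjusted p of 0.802.

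Between Brg1sh_4935 and Brg1sh_3232 no member was past the threshold in the limma fit, beside 0.612% higher and 0.411% lower of all genes. At an unadjusted p below 0.05, 10 members differed, beside 14.6% of all genes. The lowest adjusted p was that of Phf8, 0.152, with a log2 difference of 0.24 (SE 0.07) for Brg1sh_4935 over Brg1sh_3232. Both Brg1sh_4935 arrays of Phf8 were above both Brg1sh_3232 arrays.

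**Figure D4:**
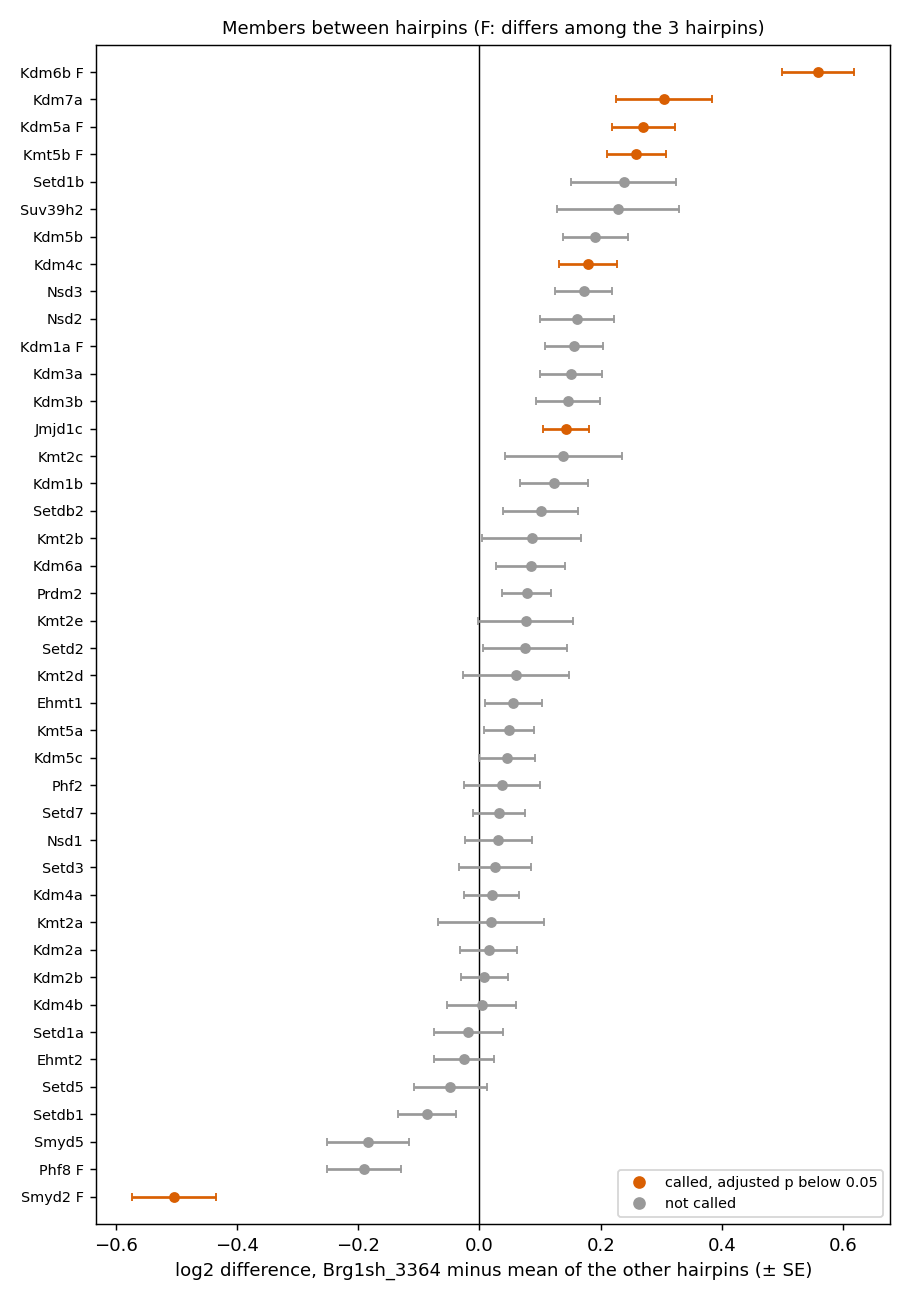
Log2 difference of each member between Brg1sh_3364 and the mean of the other Brg1 hairpins, with its SE; colour marks genes past the adjusted threshold and F marks genes that differ among the 3 hairpins. Kdm6b (0.56) and Smyd2 (-0.50) lie at the ends.

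Other genes of the same pathways were counted from lists that were likewise drawn up with earlier results known. Of 28 further enzymes of lysine methylation, 2 were higher and 4 lower than Rluc over the mean of the hairpins. Over all genes 13.3% were higher and 15.0% lower. Ezh1, the Polycomb methyltransferase of non-dividing cells, stood at 11.28 and 11.37 with Brg1sh_3232, 11.36 and 11.40 with Brg1sh_3364, and 11.42 and 11.48 with Brg1sh_4935, against 10.84, 10.89 and 10.78 with Rluc, with a log2 difference of 0.55 (SE 0.04) and no overlap. Its paralogue Ezh2 differed by -0.07 (SE 0.03), which was not past the threshold. Dot1l, the H3K79 methyltransferase that MLL-AF9 recruits, differed by -0.02 (SE 0.04) and was not past it. The JmjC genes Jmjd8 (-0.26, SE 0.04), Riox2 (-0.24, SE 0.04), Kdm8 (-0.30, SE 0.07) and Jmjd6 (-0.16, SE 0.04) were lower.

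Partner subunits of COMPASS and MLL complexes, not all shared, gave 5 lower and none higher of 15, beside 15.0% and 13.3% of all genes. The median log2 difference of the list was -0.11. Against the shared Rluc arrays, 2 of the 15 were lower with Brg1sh_3232, 1 with Brg1sh_3364 (median -0.03) and 5 with Brg1sh_4935. Over all genes 11.3%, 12.2% and 12.3% were lower with these hairpins. Dpy30 (-0.24, SE 0.05) and Ash2l (-0.23, SE 0.05), core subunits that stimulate the SET domain, and Wdr82 (-0.13, SE 0.04), which ties SETD1 complexes to RNA polymerase, were lower, as were Hcfc2 (-0.16, SE 0.05) and Paxip1 (-0.14, SE 0.04).

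Among 13 partners of LSD1 and CoREST, 4 were higher and 2 lower, beside 13.3% and 15.0% of all genes. Gfi1b, a SNAG-domain repressor that recruits LSD1, stood at 10.56 and 10.66 with Brg1sh_3232, 9.72 and 9.52 with Brg1sh_3364, and 11.34 and 11.21 with Brg1sh_4935, against 8.70, 9.02 and 9.30 with Rluc. The log2 difference was 1.497 (SE 0.11), and Brg1sh_3364 had the smallest of the 3 differences, at 0.62. Phf21a, the reader of unmethylated H3K4 in the complex, rose by 0.53 (SE 0.06). Hdac2, the deacetylase subunit, differed by -0.40 (SE 0.06) and Gfi1, the paralogue of Gfi1b, by -0.32 (SE 0.06), both lower. Of 11 partners and readers of H3K9 methylation none was higher and 2 were lower, beside 13.3% and 15.0% of all genes. The lower genes were Uhrf1 (-0.24, SE 0.03), which couples H3K9 methylation to DNA methylation at replication, and Cbx3 (-0.25, SE 0.06), an HP1 protein that binds methylated H3K9. The mitosis genes were lower in the same comparison, as given above, and their part in the differences of Uhrf1 and Cbx3 was not tested.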

How the data were processed

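RNA from 9 samples was measured on Affymetrix whole-transcript arrays. The deposited values are log2 intensities per probe set made by the authors with RMA, per the submitters' processing notes. Its version, and a genome build, are not stated there. RMA equalises the arrays by quantiles, so a general shift in RNA per cell is removed. Names came from the platform annotation of the probe sets, keeping those with 1 symbol, and each gene took its probe set with the highest mean. All per-sample columns were used.

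A group-means model over all 9 arrays was fitted with limma 3.58.1 in R 4.3.3, with 5 residual degrees of freedom, and p-values were adjusted by Benjamini-Hochberg over 19937 genes at 0.05. The script was tested on simulated data. The members and lists were chosen with earlier results of these data known. Genes were named by a rule: up to 8 members called in each direction by size, up to 6 by the F test, Kmt2a, Kdm1a, Jmjd1c, Kdm6a, Setd2, Ehmt2 and Setdb1, and up to 4 called genes of each pathway list by p, with Dot1l and Ezh2. The remaining members, Kdm8, Paxip1 and D2hgdh were named after their values were seen. Ptprc and Spi1 were also named outside the rule. Alternatives were other normalizations, filters and probe-set rules, array and hairpin omissions, and other error terms.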

Additional observations from a re-analysis of the deposited data

Results flagged for a closer look

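Genes whose response differed between the Brg1 hairpins, by limma's moderated F test adjusted over all genes, are listed here with their values. Kdm6b differed at an adjusted p of 0.00194, and its log2 differences from Rluc were 0.30 with Brg1sh_3232, 0.86 with Brg1sh_3364 and 0.29 with Brg1sh_4935. Smyd2 differed at 0.00572 by the same limma test, and its log2 differences from Rluc were -0.19 with Brg1sh_3232, -0.75 with Brg1sh_3364 and -0.30 with Brg1sh_4935. For Kdm5a the limma adjusted p was 0.0185, and its log2 differences from Rluc were 0.05 with Brg1sh_3232, 0.40 with Brg1sh_3364 and 0.20 with Brg1sh_4935. Kmt5b gave 0.0193, with 0.31 for Brg1sh_3364 and 0.11 for Brg1sh_4935, and a Brg1sh_3232 difference of -0.003. Kdm1a gave 0.0436, and its log2 differences from Rluc were -0.23 with Brg1sh_3232, 0.02 with Brg1sh_3364 and -0.04 with Brg1sh_4935. Phf8 gave 0.0464, and its log2 differences from Rluc were 0.39 with Brg1sh_3232, 0.32 with Brg1sh_3364 and 0.63 with Brg1sh_4935.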

How the results depend on the processing

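Over the mean of the hairpins against Rluc, 19 members were higher and 4 lower, beside 13.3% and 15.0% of all genes. Leaving out 1 array at a time gave 14 to 20 higher and 3 to 5 lower. Without the hairpin Brg1sh_3364 12 were higher and 6 lower, beside 10.4% and 13.1% of all genes. With 3 hairpin means as replicates the members gave 8 and 1, beside 6.71% and 7.42% of all genes. A random block for hairpin gave 13 and 1, beside 8.49% and 9.61%. Arrays centred on their medians gave 15 and 7, beside 10.9% and 19%. Counts with 1 array left out, and those at the stricter threshold, are given without a share over all genes, so they describe the members only. At an adjusted p below 0.01 the called members numbered 9 for Brg1sh_3232, 2 for the F test and 2 for Brg1sh_3364 against the other hairpins. Leaving out 1 array gave 9 to 19 called members for Brg1sh_3232, 14 to 24 for Brg1sh_3364, 7 to 16 for Brg1sh_4935, 1 to 8 for the F test and 2 to 8 for Brg1sh_3364 against the other hairpins. None was called between Brg1sh_4935 and Brg1sh_3232 under any of these settings in limma, against 10 at an unadjusted p below 0.05. The Setdb1 difference (-0.0497 at its lowest, without Rluc replicate 2) reversed to 4.94e-05 without Rluc replicate 1, and the cause was not tested. Over 42 members and 22 settings of that comparison, 806 values kept their direction and side of the threshold, 83 lost the call, 29 gained it and 6 turned sign, none of the last in a called member (Setd1a, Setd3, Setdb1 and Kdm5c). The calls of Jmjd1c, Kdm2a, Kdm3a, Kdm4a, Kdm5b, Kdm7a, Nsd3, Phf8 and Suv39h2 held in all 22. Calls of Kdm1b, Kdm4b, Kdm5a, Kmt5b, Ehmt2, Prdm2, Ehmt1, Smyd2 and Smyd5 ended both with hairpin means and with the random block, and those of Kdm3b, Kdm6b, Kmt2d, Kmt2e and Setd1b with hairpin means. Deviations of same-numbered arrays from their group means correlated at -0.126 to 0.294 over 12 pairs. The highest were those of Brg1sh_3232 with Rluc, 0.229 for replicate 1 and 0.294 for replicate 2. With 2 arrays in a hairpin group the deviations mirror each other, so the pairs are not separate checks. Whether same-numbered arrays shared a batch cannot be told from these values. With the replicate block 14 members were higher and 5 lower, beside 11.2% and 12.4% of all genes. Rluc replicate 3, which has no partner, then adds nothing. Scanner files were not used here, so scan date and signal over background could not be examined.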

Other observations

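Arginine methyltransferases methylate histones and RNA-binding proteins with the same methyl donor. Their list, which adds the PRMT5 partner Wdr77, gave 7 lower and none higher of 10 genes over the mean of the hairpins against Rluc. Over all genes 15.0% were lower and 13.3% higher. Against the shared Rluc arrays, 4 of the 10 were lower with Brg1sh_3232, 7 with Brg1sh_3364 and 5 with Brg1sh_4935, beside 11.3%, 12.2% and 12.3% of all genes. Prmt7, which makes monomethylarginine, stood at 9.70 and 10.00 with Brg1sh_3232, 9.47 and 9.38 with Brg1sh_3364, and 9.75 and 9.73 with Brg1sh_4935, against 10.12, 10.40 and 10.58 with Rluc, with a log2 difference of -0.70 (SE 0.10) and the lowest levels in Brg1sh_3364. Prmt3 differed by -0.40 (SE 0.07), Prmt1, the main asymmetric dimethylase, by -0.37 (SE 0.05), and Carm1 by -0.20 (SE 0.04), all lower. Prmt1 and Carm1 also differed among the hairpins, with adjusted p-values of 0.0234 and 0.0351 in limma's F test.

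Among 8 enzymes of methyl-donor and 2-oxoglutarate metabolism, 1 was higher and 5 lower over the mean of the hairpins, beside 13.3% and 15.0% of all genes. Of the 8, 1 was lower with Brg1sh_3232, 4 with Brg1sh_3364 and 3 with Brg1sh_4935, beside 11.3%, 12.2% and 12.3% of all genes. Mtr, the methionine synthase, stood at 10.42 and 10.28 with Brg1sh_3232, 10.13 and 10.10 with Brg1sh_3364, and 10.19 and 10.15 with Brg1sh_4935, against 10.63, 10.63 and 10.55 with Rluc, with all knockdown arrays below Rluc and a log2 difference of -0.39 (SE 0.04). Mitochondrial Idh2, which makes 2-oxoglutarate, differed by -0.35 (SE 0.04) and was lower, while D2hgdh, which oxidises D-2-hydroxyglutarate, rose by 0.18 (SE 0.05).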
